A study of Mus musculus with 24 samples.

Results

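ER folding and unfolded protein response genes were followed in the mouse mammary gland through lactation. The set is a list of 35 genes chosen by function, with earlier results of these data known, and matched by gene symbol. All 35 were found among the 32544 gene rows of the expression table, and all 35 passed the filter on low values. They comprise 12 chaperones and folding factors, 6 enzymes of disulfide bond formation, 6 sensors and transcription factors, 9 genes of ER-associated degradation and 2 subunits of the Sec61 translocon.

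Polyadenylated RNA was sequenced from inguinal mammary glands of mice on a BL/6 background with the genotypes C57 or NZB, names used for strains that carry C57 or NZB mitochondrial DNA. Glands came from non-lactating mice and from mice on lactation days 8, 14 and 21, which gave 8 groups of 3 mice and 24 samples. No other allele, agent or age is named in the labels for any group. By its title, the series concerns stress on organelles during lactation and what becomes of the gland afterwards.

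Milk proteins enter the endoplasmic reticulum (ER) through the Sec61 channel, where chaperones and disulfide isomerases fold them and a degradation pathway (ERAD) returns misfolded chains to the cytosol. Ern1 (IRE1), Atf6 and Eif2ak3 (PERK) sense unfolded protein in the ER. Active IRE1 splices the Xbp1 transcript, and the resulting factor and cleaved ATF6 raise chaperone and ERAD genes, while PERK slows translation. Secretory cells such as plasma cells and milk-producing alveolar cells are known for a large ER. Xbp1 splicing, ATF6 cleavage and PERK activity were not measured here.

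Depth was 7.03 M to 24.25 M reads per mouse (the mean of 2 columns per mouse). The lowest, C57 non-lactating mouse 2, had columns of 2.17 M and 11.89 M reads, whose CPM were averaged with equal weight as in every mouse. Milk protein genes took 74.4% of the reads in C57 glands on day 8 and 74.2% in NZB glands, but 24.7% ± 6.20 (SD, n = 3) in NZB glands on day 21 against 70.9% ± 7.80 in C57. Levels are therefore counts per 1000000 reads (CPM) after 20 milk protein genes were removed and the rest rescaled, called non-milk CPM. Changes are on the log2(non-milk CPM + 1) scale, which understates the change of low genes, with the deposited scale, milk genes kept, given beside them. One library was labelled both ways. C57 non-lactating mouse 3 has C57 in its title and NZB in its genotype tag, and it was kept as C57 after its title. Gm29216, a transcript listed at 0 in every NZB mouse and above 0 in every other C57 mouse, stood at 3591 CPM in it. NZB non-lactating mice 2 and 3 stood apart, with summed levels of 8 B cell markers of 735 and 1599 non-milk CPM against 16.5 in mouse 1. Adipocyte, fibroblast and epithelial markers were present in all groups, as in whole gland. In bulk tissue, fewer cells of a type and less RNA per cell cannot be told apart. Nothing in the labels ties samples to litters or dates, so the p-values measure the spread between these mice.

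Promoters of many members hold the ER stress response element (ERSE), a composite site that ATF6 and XBP1 bind together with NF-Y. RefSeq promoters (GRCm38.p6, 250 bases before to 50 after the start) were found for 30 of the 35 members. The ERSE was searched on both strands as CCAAT and CCACG with 9 bases of any kind between them. Of 30 members 10 (33.3%) held it, against 39 of 32851 promoters (0.119%) in the whole table. The 10 are counted as genes, while the 39 are promoters of 37 genes and include those of the members. The members were picked as genes of this response, so the contrast is description and no test. The sites are shown because they are the sequence that those 10 members share, on the strand that reads CCAAT first, with the letters of the motif in capitals and 5 flanking bases. Coordinates cover the motif.
Hspa5 (chr2:34772025-34772043, + strand): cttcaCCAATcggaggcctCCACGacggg
Hsp90b1 (chr10:86705638-86705656, - strand): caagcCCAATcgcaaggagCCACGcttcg
Hsp90b1 (chr10:86705533-86705551, + strand): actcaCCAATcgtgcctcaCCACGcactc
Calr (chr8:84847075-84847093, + strand): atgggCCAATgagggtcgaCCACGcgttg
Canx (chr11:50325800-50325818, - strand): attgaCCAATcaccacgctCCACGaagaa
Dnajc3 (chr14:118937827-118937845, + strand): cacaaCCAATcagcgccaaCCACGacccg
Creld2 (chr15:88819520-88819538, - strand): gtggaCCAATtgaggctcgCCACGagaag
Pdia6 (chr12:17266491-17266509, + strand): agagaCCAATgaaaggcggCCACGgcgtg
Ero1lb (chr13:12565682-12565700, - strand): ggcggCCAATgaggcgggaCCACGaggcc
Syvn1 (chr19:6046532-6046550, + strand): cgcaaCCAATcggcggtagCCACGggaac
Derl3 (chr10:75893242-75893260, - strand): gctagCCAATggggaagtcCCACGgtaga
Hsp90b1 held 2 copies and the other 9 members 1 each. No spacer of 9 bases was the same in any pair of sites. The related ERSE-II (ATTGG and CCACG with 1 base between them) was present in Dnajb11 and Herpud1, and in 12 of 32851 promoters (0.0365%). The XBP1 site UPRE (TGACG directly followed by TGG) was in 0 of 30 members and in 222 promoters (0.676%). No hit overlapped another. A match of letters is no evidence of binding.

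The 250 bases before the start are shown for 2 members, Hspa5 as the member with the best known ERSE and Fkbp11 as the one whose level changed most in these glands.
Hspa5 (chr2:34771840-34772089, + strand): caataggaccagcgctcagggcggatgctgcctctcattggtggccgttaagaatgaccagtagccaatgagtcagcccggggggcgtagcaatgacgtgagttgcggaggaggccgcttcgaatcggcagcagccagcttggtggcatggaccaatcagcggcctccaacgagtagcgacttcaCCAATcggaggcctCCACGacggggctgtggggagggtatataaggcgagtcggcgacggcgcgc
Fkbp11 (chr15:98728199-98728448, - strand): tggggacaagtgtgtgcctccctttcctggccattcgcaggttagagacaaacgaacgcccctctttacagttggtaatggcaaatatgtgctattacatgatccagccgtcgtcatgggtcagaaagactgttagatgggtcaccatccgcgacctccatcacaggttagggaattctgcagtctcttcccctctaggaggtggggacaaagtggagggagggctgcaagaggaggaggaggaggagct
Capitals mark the ERSE in Hspa5. None of the searched motifs was found in the Fkbp11 window, nor in that of its other annotated start.

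The first comparison asked which members change when the gland goes from the non-lactating state to established milk secretion. On day 8 in C57, 22 of 35 members were higher and 4 lower, while 14.7% of all 16924 tested genes were higher and 34.3% lower. The median member changed by 0.73 and the median gene by −0.28. In NZB 19 members were higher and 2 lower (12.3% and 25.4% of all genes), with medians of 0.76 and −0.29. On the deposited scale, where milk transcripts fill most of the library, 3 members were higher and 25 lower in C57 (2.38% and 90.5% of all genes) and 3 and 23 in NZB (2.71% and 87.5%). There the median member changed by −1.14 and −1.12, and the median gene by −1.80 in both genotypes.

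Cell type markers moved with this comparison. On the non-milk scale white adipocyte markers had 0 of 9 higher and 9 lower (median −4.57) in C57, with a mean sum of 5673 CPM in non-lactating glands and 295 on day 8. Fibroblast markers had 0 of 7 higher and 7 lower (median −3.16), with sums of 6017 and 644. Secretory luminal markers had 3 of 3 higher and 0 lower (median 5.88), with sums of 94.8 and 9453. In NZB adipocyte markers had 0 of 9 higher and 9 lower (median −3.89), fibroblast markers 0 of 7 higher and 7 lower (median −2.99) and secretory luminal markers 3 of 3 higher and 0 lower (median 6.95). General luminal markers had 4 of 10 higher and 4 lower (median −0.36) in C57 and 7 of 10 higher and 0 lower (median 1.74) in NZB, and B cell markers 0 of 8 higher and 0 lower (median −0.40) and 0 of 8 higher and 8 lower (median −3.50). Adipocyte, fibroblast and secretory markers kept these directions on the deposited scale, with the same counts. The part of these shifts in the members' changes was not tested.

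**Figure D1:**
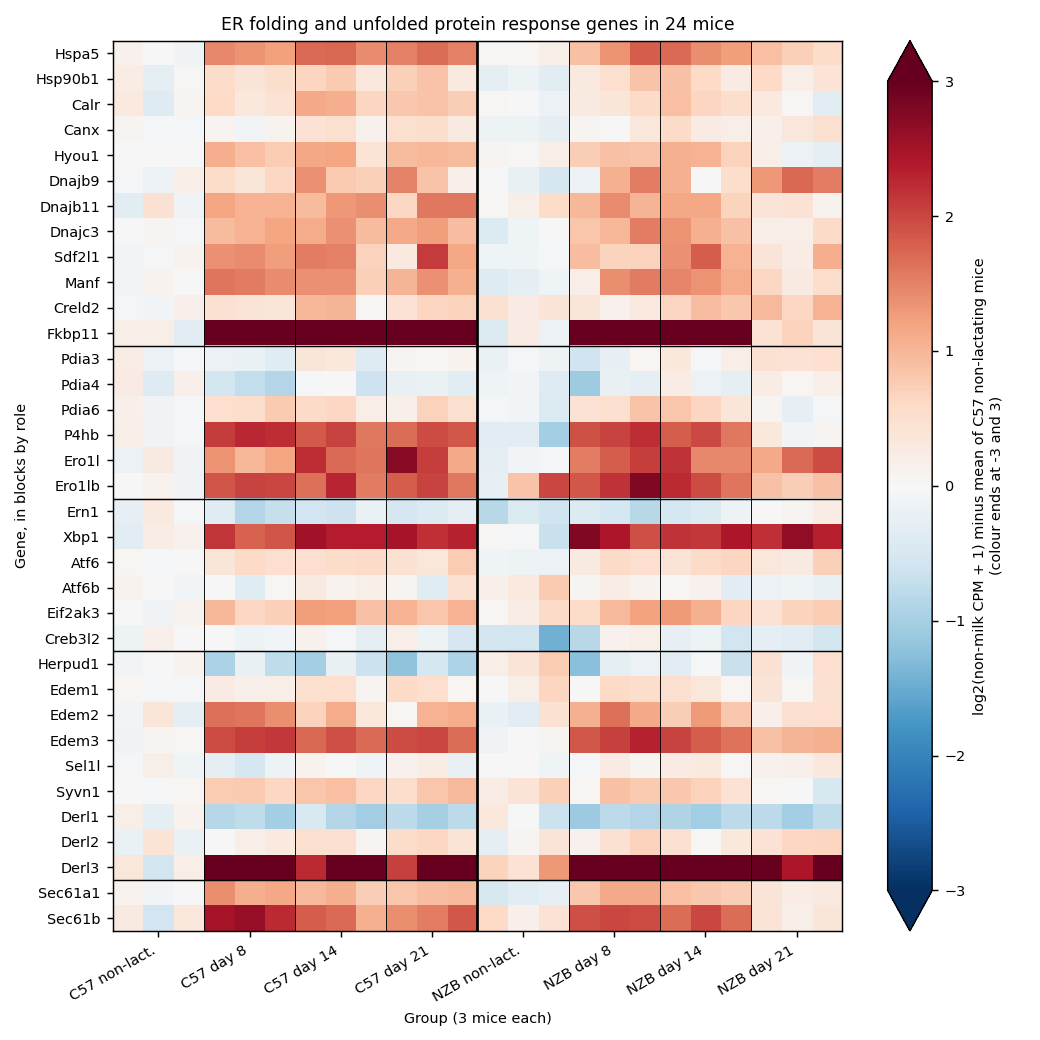
Level of each of the 35 genes (rows, in blocks by role) in each of 24 mice (columns) as log2(non-milk CPM + 1) minus the mean of the C57 non-lactating mice, in blocks of 3 mice. Fkbp11 reaches the end of the colour scale on day 8 and returns near the non-lactating level in NZB mice on day 21. With milk transcripts kept, 25 of 35 rows were lower in C57 at day 8.

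Among chaperones, 9 of 12 rose in C57 on day 8 and 7 of 12 in NZB, and 0 fell in either. Over all genes 14.7% were higher and 34.3% lower in C57, and 12.3% and 25.4% in NZB. Hspa5 (BiP, chr2:34771970-34777547, + strand in the GENCODE annotation of GRCm38), the main Hsp70 of the ER, stood at 86.4, 78.2 and 73.3 non-milk CPM in C57 non-lactating mice and at 217, 204 and 188 on day 8. All day 8 mice were above all non-lactating mice, a change of 1.34 (SE 0.17, limma adjusted p = 6.3e-07, deposited scale −0.60). In NZB the levels were 81.6, 81.9 and 89.7 and then 146, 203 and 283, again without overlap, a change of 1.26 (SE 0.23, limma adjusted p = 0.00016, deposited scale −0.66).

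Fkbp11 (chr15:98724366-98728198, - strand), a peptidyl-prolyl isomerase of secretory cells, rose most of all members. Its level was 1.9, 1.9 and 1.04 non-milk CPM in C57 non-lactating mice and 108, 103 and 111 on day 8. The change was 5.39 (SE 0.22, limma adjusted p = 8.6e-15, deposited scale 3.46), so the gene was higher on both scales. NZB mice went from 0.948, 2.08 and 1.28 to 72.7, 105 and 92.1. That was a change of 5.23 (SE 0.30, limma adjusted p = 1e-11, deposited scale 3.34), and the day 8 mice lay far above the non-lactating ones in both genotypes.

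Manf, a secreted ER stress factor, averaged 39.2 ± 2.61 non-milk CPM (mean ± SD, n = 3) in C57 non-lactating glands and 115 ± 7.73 on day 8, and passed the test. Of the Hsp40 cofactors of BiP, Dnajb11 went from 29.2 ± 8.81 to 62 ± 3.76 and Dnajc3 (p58IPK) from 82.5 ± 3.83 to 172 ± 13.3, and both were called higher. Hyou1, which exchanges nucleotide on BiP, went from 61.8 ± 0.864 to 118 ± 13 and also passed. The lectin chaperone Calr and the Hsp90 of the ER, Hsp90b1, rose by smaller amounts, from 342 ± 80.2 to 461 ± 47.9 and from 255 ± 42 to 356 ± 23.1. For Hsp90b1 15.7% of its exon bases lie in annotated exons of other genes, for Manf 9.25%, for Sec61a1 8.16% and for Eif2ak3 8.05%. Whether counting used strand is not given in the sources used here, so these levels are less certain. Sdf2l1, a partner of BiP, rose at a low level, from 1.91 ± 0.19 to 6.39 ± 0.386. The 3 chaperones that did not pass in C57 were the membrane lectin Canx (239.7 ± 11.9 and 245 ± 16.6), Dnajb9 (42.7 ± 6.03 and 61.5 ± 5.61) and Creld2 (5.7 ± 0.627 and 7.87 ± 0.287). Apart from Fkbp11, every chaperone had a negative change on day 8 in C57 on the deposited scale, from −0.14 for Sdf2l1 to −1.92 for Canx.

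Of the disulfide enzymes, 4 of 6 rose in each genotype, against 14.7% of all genes in C57 and 12.3% in NZB. P4hb, the disulfide isomerase PDI (chr11:120560298-120573253, - strand), stood at 279.9, 231 and 239 non-milk CPM in C57 non-lactating mice and 1066, 1204 and 1163 on day 8. No day 8 mouse came near a non-lactating one, and the change was 2.19 (SE 0.16, limma adjusted p = 9.5e-11, deposited scale 0.23). NZB mice went from 196, 195 and 122 to 933, 1019 and 1161, a change of 2.62 (SE 0.21, limma adjusted p = 2e-09, deposited scale 0.69). The 2 ER oxidases that reoxidise PDI also rose, each shown here in 1 genotype, so the values do not stand for the other genotype. Ero1lb went from 12.8, 13.8 and 11.8 to 50.3, 55.3 and 53.9 in C57, a change of 1.97 (SE 0.26, limma adjusted p = 1.1e-06, deposited scale 0.08). Ero1l went from 33.5, 38.9 and 40 to 121, 147 and 177 in NZB, a change of 1.94 (SE 0.35, limma adjusted p = 0.00012, deposited scale 0.04). The groups did not overlap in either case. The other isomerases behaved differently. Pdia6 rose from 50.3 ± 5.09 to 77.4 ± 9.1 in C57 (deposited scale −1.30), Pdia3, which works with calnexin and calreticulin, averaged 120.0 ± 17.5 and 100.3 ± 7.31 without passing, and Pdia4 fell. Pdia4 levels were 129, 83.6 and 121 and then 74.1, 64.9 and 59.1, a change of −0.72 (SE 0.20, limma adjusted p = 0.0041, deposited scale −2.63) with no overlap. The Pdia4 call was lost without C57 non-lactating mouse 1 (−0.61, limma adjusted p = 0.066) or mouse 3 (−0.65, 0.05), and with median-of-ratios scaling (−0.43, 0.11).

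Among sensors and transcription factors, 3 of 6 rose in each genotype on day 8, against 14.7% of all genes in C57 and 12.3% in NZB. Xbp1 (chr11:5520659-5525893, + strand), the transcription factor gene spliced by IRE1, stood at 159, 234 and 218 non-milk CPM in C57 non-lactating mice and at 889, 685 and 751 on day 8. The groups lay well apart, with a change of 1.93 (SE 0.19, limma adjusted p = 1.8e-08, deposited scale −0.02). In NZB it went from 205, 192 and 127 to 1392, 1077 and 766, a change of 2.61 (SE 0.26, limma adjusted p = 6e-08, deposited scale 0.68). These values count all Xbp1 transcripts, spliced or not.

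On the non-milk scale the 3 sensors differed in direction in C57. Ern1, which encodes IRE1, stood at 64.1, 94.3 and 73.3 in C57 non-lactating mice and 59.3, 40.8 and 47.1 on day 8. Every day 8 mouse was below every non-lactating mouse, a change of −0.64 (SE 0.17, limma adjusted p = 0.0028, deposited scale −2.52), which did not pass with median-of-ratios scaling (−0.35, limma adjusted p = 0.061). In NZB the change was 0.04 (SE 0.23, limma adjusted p = 0.92, deposited scale −1.82), which did not pass, with levels of 42.1, 55.8 and 49.8 and 57.2, 52.4 and 42.2 that overlapped. Atf6 rose modestly, from 76.5, 71.1 and 72.9 to 95.5, 110.0 and 105 in C57, a change of 0.49 (SE 0.13, limma adjusted p = 0.0034, deposited scale −1.44). In NZB it changed by 0.61 (SE 0.18, limma adjusted p = 0.009, deposited scale −1.29), a call lost without non-lactating mouse 2 (0.61, limma adjusted p = 0.15). Eif2ak3, the gene of PERK, went from 33.1, 30.9 and 36 to 67.4, 52 and 55.3 in C57, a change of 0.78 (SE 0.17, limma adjusted p = 0.00068, deposited scale −1.11), with all day 8 mice higher. Its change in NZB was 0.62 (SE 0.24, limma adjusted p = 0.042, deposited scale −1.25), from levels of 34.8, 39.1 and 50.2 to 49.4, 66.7 and 77.6, where the lowest day 8 mouse lay below the highest non-lactating one. The NZB call was lost without any of non-lactating mice 1 or 2 or day 8 mice 2 or 3 (limma adjusted p = 0.084 to 0.31). It was lost as well without the low-value filter (0.62, limma adjusted p = 0.068), in a fit of the compared groups alone (0.62, 0.076) and with the replicate number as a block (0.62, 0.058). The Atf6 paralogue Atf6b averaged 35.5 ± 2.34 and 33 ± 5.07 in C57, and Creb3l2, a related membrane-bound factor, 142 ± 14.9 and 134 ± 7.82. Neither passed in either genotype on day 8.

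Of the ERAD genes, 4 of 9 were higher and 2 lower in C57, and 3 were higher and 2 lower in NZB. Over all genes 14.7% were higher and 34.3% lower in C57, and 12.3% and 25.4% in NZB. The lower ERAD genes are thus no more than the share of all genes would give. Derl3 (chr10:75893413-75895941, + strand), a derlin of secretory cells, stood at 1.79, 0.507 and 1.55 non-milk CPM in C57 non-lactating mice and at 61.1, 48.6 and 54.1 on day 8. It was higher on both scales, with a change of 4.65 (SE 0.43, limma adjusted p = 5.9e-09, deposited scale 2.76). NZB mice went from 2.5, 2 and 4.45 to 30.8, 70.4 and 70.2, a change of 3.82 (SE 0.59, limma adjusted p = 1.9e-05, deposited scale 1.96). Its paralogue Derl1 (chr15:57869502-57892448, - strand) went the other way, from 169, 122 and 159.5 to 82.2, 87 and 73.2 in C57, a change of −0.88 (SE 0.16, limma adjusted p = 8.5e-05, deposited scale −2.79). No day 8 mouse reached the lowest non-lactating mouse. In NZB Derl1 changed by −0.81 (SE 0.22, limma adjusted p = 0.0054, deposited scale −2.69), a call lost without non-lactating mouse 1 (−0.60, limma adjusted p = 0.055) or mouse 2 (−0.74, 0.13) and with median-of-ratios scaling (−0.54, 0.13). Derl2 averaged 44.4 ± 11.6 and 48.7 ± 4.89 in C57 and did not pass.

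The Edem genes encode proteins that trim mannose from glycoproteins bound for degradation. Edem3 (chr1:151755371-151822051, + strand) went from 48.5, 55.1 and 53.9 to 206, 222 and 231 in C57, a change of 2.05 (SE 0.13, limma adjusted p = 1.7e-11, deposited scale 0.10). In NZB it went from 48.9, 51.7 and 55.7 to 194, 221 and 264, a change of 2.09 (SE 0.18, limma adjusted p = 4.9e-09, deposited scale 0.17). Day 8 and non-lactating mice did not overlap in either genotype. Edem2 rose from 23.9 ± 6.02 to 71 ± 6.42 in C57 (deposited scale −0.35), while Edem1 averaged 114 ± 3.75 and 130.5 ± 4.85 and did not pass. Of the ubiquitin ligase complex at the ER membrane, the ligase Syvn1 (HRD1) rose from 86.1 ± 3.31 to 143 ± 8.2 in C57 (deposited scale −1.21), and its partner Sel1l averaged 140.2 ± 15.1 and 113 ± 14.5 without passing. Herpud1 (chr8:94386438-94395377, + strand), which organises that complex, stood at 23.6, 24.9 and 27.2 in C57 non-lactating mice and 12.5, 21.5 and 14.4 on day 8, all below the non-lactating mice. The change was −0.65 (SE 0.27, limma adjusted p = 0.049, deposited scale −2.38) in C57 and −1.01 (SE 0.36, limma adjusted p = 0.031, deposited scale −2.71) in NZB. The C57 call is near the threshold and was lost without any of non-lactating mice 1 or 3 or day 8 mice 1 or 3 (limma adjusted p = 0.12 to 0.20), with median-of-ratios scaling (−0.36, 0.27), by limma voom (−0.68, 0.078), without group weights (−0.65, 0.075), without the low-value filter (−0.65, 0.10) and with the second column alone (−0.64, 0.062). The NZB call was lost without day 8 mouse 1 (−0.67, limma adjusted p = 0.11), without non-lactating mouse 2 (−1.04, 0.23), without the low-value filter (−1.01, 0.071) and with median-of-ratios scaling (−0.75, 0.12).

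Both translocon genes rose. Sec61b (chr4:47474658-47483242, + strand), a small subunit of the channel, went from 11.9, 6.22 and 12.3 to 59.5, 64.8 and 50.1 non-milk CPM in C57 and from 15.3, 11 and 13.6 to 39.8, 41.9 and 40.9 in NZB. The changes were 2.45 (SE 0.20, limma adjusted p = 1.2e-09, deposited scale 0.56) and 1.56 (SE 0.28, limma adjusted p = 0.00011, deposited scale −0.28), with no overlap of groups. Sec61a1, which forms the pore, averaged 152 ± 10.7 and 354 ± 41 in C57 and 119 ± 10 and 312 ± 39.5 in NZB, with changes of −0.74 and −0.54 on the deposited scale.

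**Figure D2:**
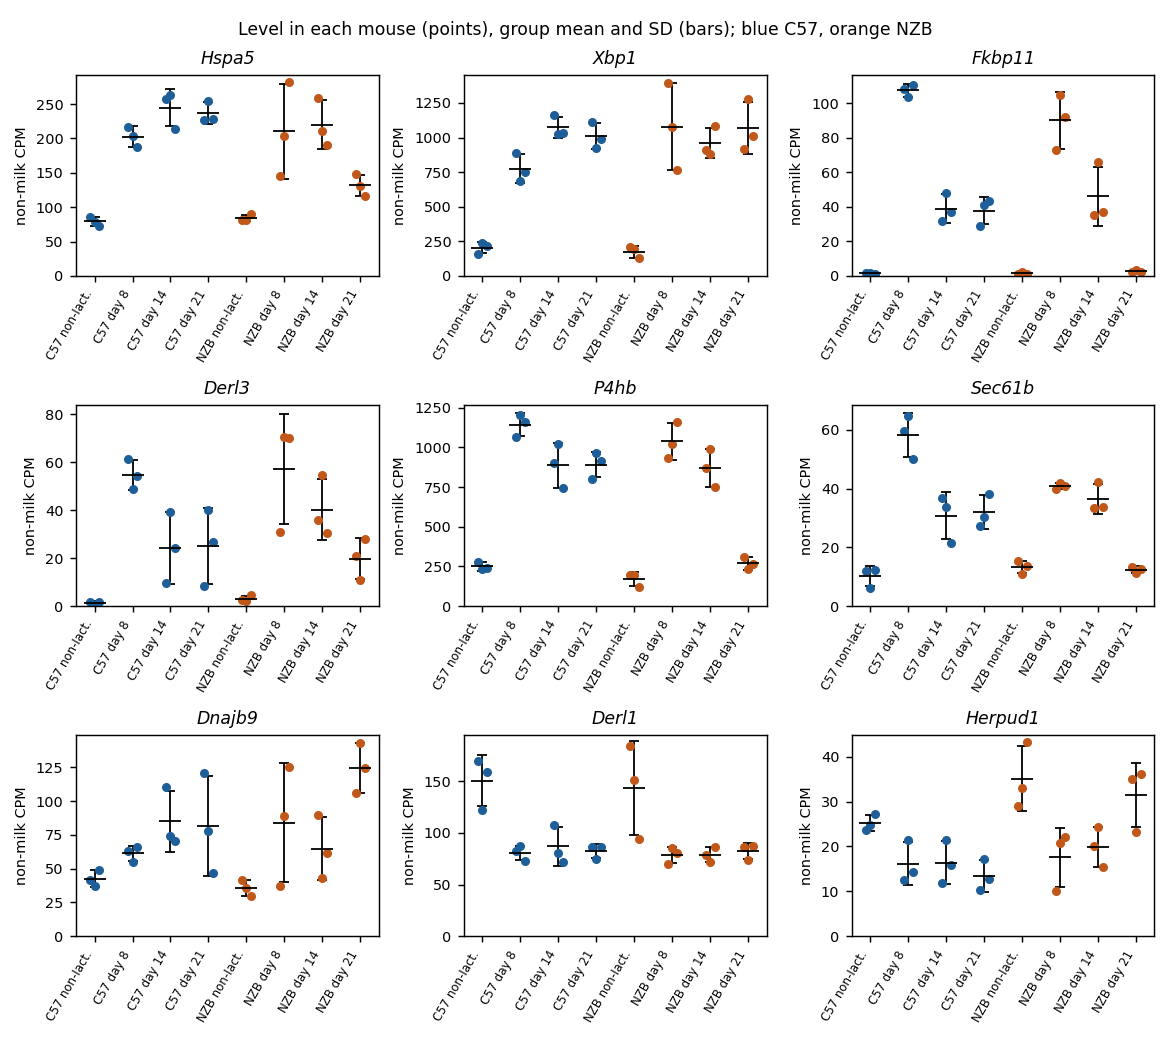
Non-milk CPM (linear axes from 0) of 9 genes in each of 24 mice, with points for mice and bars for group means and SD (n = 3), blue for C57 and orange for NZB. Fkbp11, P4hb and Sec61b are high in all lactating groups except NZB day 21, while Xbp1 stays high there. For Hspa5 the rise on day 8 in C57 turns to −0.60 on the deposited scale.

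In C57, days 14 and 21 were also compared with non-lactating glands. On day 14, 24 members were higher and 1 lower than in non-lactating glands (14.5% and 24.7% of all genes; medians 0.92 for members and −0.16 for all genes). On day 21, 23 were higher and 2 lower (13.3% and 23.7%; medians 0.80 and −0.17). With milk genes kept, 2 were higher and 23 lower on day 14 (2.53% and 86.6% of all genes), and 2 and 22 on day 21 (2.23% and 85.4%). These comparisons share the non-lactating mice with day 8.

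The levels of some members on days 14 and 21 differed from day 8, without a test between those days. Fkbp11 stood at 31.6, 48.1 and 37.2 non-milk CPM on day 14 and 28.8, 41 and 43.5 on day 21, all below the 108, 103 and 111 of day 8. Against non-lactating glands it was still higher by 3.93 (SE 0.24, limma adjusted p = 1.6e-11, deposited scale 2.22) and 3.89 (SE 0.26, limma adjusted p = 7.6e-11, deposited scale 2.17). Derl3 stood at 9.41, 39.3 and 24.2 and 8.16, 39.9 and 26.8, with mouse 1 of each day lowest, and changes of 3.31 (SE 0.47, limma adjusted p = 5.2e-06, deposited scale 1.68) and 3.31 (SE 0.51, limma adjusted p = 1.4e-05, deposited scale 1.66). Xbp1 was at 1161, 1025 and 1034 on day 14 and 1113, 925 and 991 on day 21, with changes of 2.41 (SE 0.21, limma adjusted p = 5.1e-09, deposited scale 0.62) and 2.32 (SE 0.23, limma adjusted p = 2.9e-08, deposited scale 0.52). Hspa5 was at 258, 263 and 214 and 226, 255 and 229, with changes of 1.61 (SE 0.19, limma adjusted p = 3e-07, deposited scale −0.17) and 1.57 (SE 0.20, limma adjusted p = 1.3e-06, deposited scale −0.22).

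Other members kept large differences from non-lactating glands in C57. P4hb changed by 1.82 (SE 0.17) on day 14 and 1.83 (SE 0.18) on day 21, and Ero1l by 1.84 (SE 0.28) and 1.98 (SE 0.30), all past the limma threshold. With milk genes kept P4hb was at 0.03 and 0.03, and Ero1l at 0.07 and 0.20. Ero1l varied between mice, at 277, 177 and 90.7 non-milk CPM on day 21. Atf6 changed by 0.54 (SE 0.14, limma adjusted p = 0.0042, deposited scale −1.23) and 0.52 (SE 0.15, limma adjusted p = 0.009, deposited scale −1.25), the day 21 call lost without day 21 mouse 3 (0.40, limma adjusted p = 0.078), and Eif2ak3 by 1.12 (SE 0.19, limma adjusted p = 5.3e-05, deposited scale −0.63) and 0.97 (SE 0.20, limma adjusted p = 0.00056, deposited scale −0.78). The Atf6 call of day 21 was also lost in a fit of the compared groups alone (0.52, limma adjusted p = 0.05). Ern1 was at −0.46 (SE 0.18, limma adjusted p = 0.052, deposited scale −2.19) and −0.40 (SE 0.20, limma adjusted p = 0.12, deposited scale −2.14) and did not pass on either day, though without day 14 mouse 3 the day 14 value passed (−0.59, limma adjusted p = 0.029). Derl1 was lower on both days, at −0.79 (SE 0.18, limma adjusted p = 0.00097, deposited scale −2.54) and −0.85 (SE 0.19, limma adjusted p = 0.00096, deposited scale −2.61). Herpud1 was called lower on day 21, at −0.88 (SE 0.31, limma adjusted p = 0.029, deposited scale −2.45), and the call was lost without any of C57 day 21 mouse 1 or 3 or non-lactating mouse 1 or 3 (limma adjusted p = 0.072 to 0.13), with median-of-ratios scaling (−0.73, 0.076) and without the low-value filter (−0.88, 0.056).

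Without C57 non-lactating mouse 3, the library with conflicting labels, 20 members were higher and 2 lower on day 8, 19 and 1 on day 14, and 19 and 1 on day 21. Between days 14 and 21 of C57, 0 of 35 members and 0 of 16924 genes (0%) passed the limma test. At an unadjusted p under 0.05 the members numbered 0 as well, against 0.963% of all genes, and limma voom on recovered reads called 0 members. That share of genes is below the 0.05 that a well-scaled test gives where nothing changes. The test may therefore be too strict in this comparison, and 0 calls do not show that no member changed. On the deposited scale 0 members passed as well (0% of all genes). The members' changes lay between −0.26 (SE 0.31) for Herpud1 and 0.18 (SE 0.21) for Derl2.

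In NZB glands on day 14, 22 members were higher and 1 lower than in non-lactating glands (12.4% and 22.1% of all genes; medians 0.79 and −0.31). With milk genes kept these were 3 and 22 (3.16% and 86.2%). Fkbp11 stood at 35.4, 65.8 and 36.9 non-milk CPM, a change of 4.24 (SE 0.31, limma adjusted p = 4.4e-10, deposited scale 2.48), and Derl3 at 35.7, 54.6 and 30.4, a change of 3.38 (SE 0.59, limma adjusted p = 0.00012, deposited scale 1.63). All of these mice were above the non-lactating ones. Xbp1 changed by 2.48 (SE 0.27, limma adjusted p = 1.9e-07, deposited scale 0.65), P4hb by 2.37 (SE 0.21, limma adjusted p = 1.4e-08, deposited scale 0.54), Edem3 by 1.84 (SE 0.18, limma adjusted p = 5.1e-08, deposited scale 0.02) and Ero1l by 1.81 (SE 0.35, limma adjusted p = 0.00035, deposited scale 0.00). Hspa5 changed by 1.36 (SE 0.23, limma adjusted p = 9.2e-05, deposited scale −0.45), Atf6 by 0.70 (SE 0.18, limma adjusted p = 0.004, deposited scale −1.10) and Eif2ak3 by 0.70 (SE 0.24, limma adjusted p = 0.027, deposited scale −1.08). The Atf6 call was lost without non-lactating mouse 2 (0.70, limma adjusted p = 0.10), and the Eif2ak3 call without any of non-lactating mice 1 or 2 or day 14 mice 1 or 2 (0.063 to 0.26). With the compared groups alone the Eif2ak3 call was lost as well (0.70, limma adjusted p = 0.061). Ern1 was at 0.27 (SE 0.23, limma adjusted p = 0.39, deposited scale −1.51) and did not pass. Derl1 was the member called lower, at −0.80 (SE 0.22, limma adjusted p = 0.0073, deposited scale −2.59), a call lost without non-lactating mouse 1 (−0.60, limma adjusted p = 0.062) or mouse 2 (−0.74, 0.15) and with median-of-ratios scaling (−0.54, 0.14). A fit of the compared groups alone lost it too (−0.80, limma adjusted p = 0.053).

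The NZB counts depended on the non-lactating mice. Without mouse 2, 10 members were higher and 0 lower on each of days 8 and 14, whereas without mouse 3 the numbers were 22 and 2 on day 8 and 22 and 1 on day 14. Leaving out both, the mice with high lymphocyte markers, leaves 1 mouse in the NZB non-lactating group, so no counts are given for that fit. Summed levels of 10 luminal epithelial markers were 125, 338 and 52.9 non-milk CPM in NZB non-lactating mice and 633, 1356 and 639 in C57, and the part of this in the results was not tested.

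The genotypes were then compared at each stage up to day 14. By limma 0 of 35 members differed in non-lactating glands (0.668% of all genes higher in NZB and 1.68% lower), 0 on day 8 (0.0886% and 0.0355%) and 0 on day 14 (0.0295% and 0.0118%). At an unadjusted p under 0.05, 1 member was higher and 3 lower in non-lactating glands, 3 and 2 on day 8, and 0 and 0 on day 14. Limma voom called 1 member in non-lactating glands, 0 on day 8 and 0 on day 14. With milk genes kept 0 members passed at any of these stages, against 1.69% of all genes higher in NZB and 2.22% lower in non-lactating glands, 0.0558% and 0.0496% on day 8, and 0.0248% and 0.0124% on day 14. On day 8 Hspa5 differed by 0.00 (95% interval −0.33 to 0.34) on the log2 scale, Xbp1 by 0.44 (95% interval 0.06 to 0.82), Fkbp11 by −0.27 (95% interval −0.70 to 0.17) and Derl3 by −0.02 (95% interval −0.87 to 0.82), NZB less C57. On day 14 the differences were −0.16 (95% interval −0.54 to 0.22) for Hspa5, −0.16 (95% interval −0.59 to 0.26) for Xbp1, 0.20 (95% interval −0.30 to 0.69) for Fkbp11 and 0.87 (95% interval −0.09 to 1.83) for Derl3. The sensors on day 14 differed by 0.09 (95% interval −0.28 to 0.47) for Ern1, 0.01 (95% interval −0.28 to 0.30) for Atf6 and −0.12 (95% interval −0.51 to 0.26) for Eif2ak3. These intervals are not adjusted, and none of these differences passed after adjustment. Among these genes the intervals were widest for Derl3, whose levels varied between mice. In non-lactating glands Ern1 was at −0.63 (95% interval −1.12 to −0.15) and did not pass (limma adjusted p = 0.19). It was called lower in NZB with median-of-ratios scaling (−0.75, limma adjusted p = 0.04), without group weights (−0.63, 0.048) and by limma voom (−0.64, 0.042).

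Late lactation in NZB was compared next. Between days 14 and 21 in NZB, 14 of 35 members fell and 1 rose, while 7.06% of all genes fell and 19.2% rose. The median member changed by −0.37 and the median gene by 0.26. On the deposited scale, where the milk share was 72.2% on day 14 and 24.7% on day 21, 27 members were higher and 1 lower (88.4% and 0.979% of all genes), with medians of 1.03 and 1.36. Median-of-ratios scaling gave 0 higher and 17 lower. The members that fell were 7 of 12 chaperones, 3 of 6 disulfide enzymes, 2 of 9 ERAD genes and both translocon genes. Of the 6 sensors and transcription factors, 0 passed in either direction.

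Fkbp11 fell in NZB from 35.4, 65.8 and 36.9 non-milk CPM on day 14 to 2.47, 3.17 and 2.38 on day 21. All 3 day 21 mice were near the non-lactating level, and the change was −3.63 (SE 0.23, limma adjusted p = 5.2e-10, deposited scale −2.14). It was the member that fell on both scales (deposited-scale limma adjusted p = 1.2e-07). P4hb went from 872, 990.2 and 752 to 311, 234 and 263, a change of −1.69 (SE 0.16, limma adjusted p = 1.5e-07, deposited scale −0.25), which on the deposited scale did not pass. Sec61b went from 33.5, 42.2 and 33.6 to 13.3, 11.2 and 12.8, a change of −1.48 (SE 0.22, limma adjusted p = 3.9e-05, deposited scale −0.10), also not called on the deposited scale. Neither gene had overlapping groups on the non-milk scale.

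The other 11 members called lower all had positive values on the deposited scale. Ero1lb went from 64.5, 52.4 and 40.9 to 24.4, 21.9 and 24.1, a change of −1.11 (SE 0.27, limma adjusted p = 0.0049, deposited scale 0.29). Hyou1 (chr9:44379490-44392369, + strand) went from 131, 129 and 100.1 to 69.7, 54.7 and 50.6, a change of −1.03 (SE 0.17, limma adjusted p = 0.00013, deposited scale 0.39). Manf went from 110.2, 101 and 85.7 to 60.9, 47.2 and 56.4, a change of −0.84 (SE 0.25, limma adjusted p = 0.015, deposited scale 0.57), lost without day 14 mouse 2 (−0.82, limma adjusted p = 0.062) or day 21 mouse 2 (−0.74, 0.12). In each of these, every day 21 mouse was below every day 14 mouse. Hspa5 went from 259, 211 and 190.3 to 148, 132 and 116, again without overlap, a change of −0.73 (SE 0.18, limma adjusted p = 0.0047, deposited scale 0.70). The ERAD genes Edem3 and Syvn1 changed by −0.84 (SE 0.14, limma adjusted p = 0.00015, deposited scale 0.59) and −0.80 (SE 0.19, limma adjusted p = 0.0034, deposited scale 0.63), and Dnajc3 by −0.77 (SE 0.17, limma adjusted p = 0.0024, deposited scale 0.65). Pdia6, Dnajb11, Calr and Sec61a1 fell as well. Non-milk means on days 14 and 21 were 189.9 ± 27.1 and 105 ± 6.58 for Edem3, 136 ± 18.4 and 78.6 ± 15.3 for Syvn1, and 179.5 ± 30.6 and 104 ± 16.7 for Dnajc3. Deposited-scale changes of these 7 genes ran from 0.59 for Edem3 to 0.92 for Sec61a1.

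The regulators did not pass the test. Xbp1 stood at 912, 884 and 1083 on day 14 and 919, 1279 and 1013 on day 21, overlapping, with a change of 0.15 (SE 0.20, limma adjusted p = 0.62, deposited scale 1.59). Ern1 was at 52.5, 56.8 and 69 and 76, 80.2 and 89.6, all day 21 mice higher, with a change of 0.46 (SE 0.18, limma adjusted p = 0.057, deposited scale 1.85) that missed the threshold. It passed without day 14 mouse 3 (0.57, limma adjusted p = 0.033) or day 21 mouse 1 (0.51, 0.046). Atf6 changed by −0.11 (SE 0.14, limma adjusted p = 0.58, deposited scale 1.30) and Eif2ak3 by −0.37 (SE 0.18, limma adjusted p = 0.15, deposited scale 1.03). Eif2ak3 was called lower with median-of-ratios scaling (−0.61, limma adjusted p = 0.022) and without day 14 mouse 3 (−0.55, 0.038). Derl3 stood at 35.7, 54.6 and 30.4 and 20.6, 10.9 and 27.8, with no mouse of day 21 above the lowest of day 14, and a change of −1.04 (SE 0.46, limma adjusted p = 0.094, deposited scale 0.34) that did not pass.

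Dnajb9 (chr12:44205559-44210326, - strand), the ERdj4 cochaperone, was the member that rose. It stood at 89.8, 43 and 61.9 non-milk CPM on day 14 and 106, 143 and 125 on day 21, with all day 21 mice higher. The change was 0.99 (SE 0.33, limma adjusted p = 0.032, deposited scale 2.37), which was lost with median-of-ratios scaling (0.74, limma adjusted p = 0.12), without the low-value filter (0.99, 0.075) and without day 14 mouse 2 (0.73, 0.20), day 14 mouse 3 (0.98, 0.058), day 21 mouse 2 (0.88, 0.17) or day 21 mouse 3 (0.98, 0.061).

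**Figure D3:**
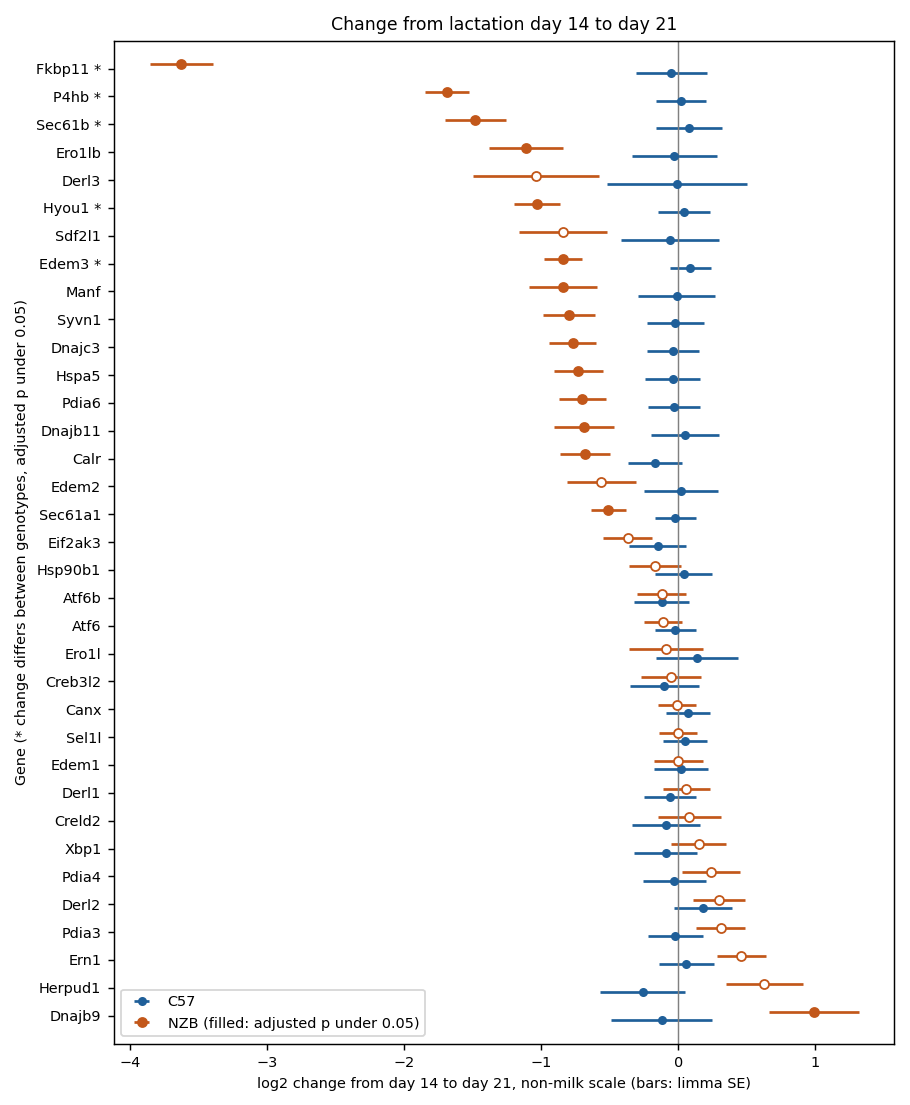
Change from day 14 to day 21 in each of the 35 genes (rows) on the log2 non-milk scale, with limma SE bars, for C57 (blue) and NZB (orange, filled where adjusted p is under 0.05). C57 points lie near 0, while NZB runs from −3.63 for Fkbp11 to 0.99 for Dnajb9. With milk genes kept most NZB changes turn positive.

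Between genotypes on day 21, 13 of 35 members were lower in NZB than in C57 and 1 higher (5.65% and 17.4% of all genes; medians −0.35 and 0.28). This comparison shares the NZB day 21 mice with the last one. Keeping milk genes, 23 members were higher and 1 lower (82.9% and 0.855% of all genes). Without C57 day 21 mouse 2, 8 members were lower. Fkbp11 stood at 28.8, 41 and 43.5 non-milk CPM in C57 and 2.47, 3.17 and 2.38 in NZB, a difference of −3.38 (SE 0.26, limma adjusted p = 8.6e-09, deposited scale −1.95). P4hb differed by −1.73 (SE 0.18, limma adjusted p = 5.7e-07, deposited scale −0.33), from 803, 962 and 912 in C57 to 311, 234 and 263 in NZB. In both genes the genotypes lay far apart.

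Sec61b differed between genotypes on day 21 by −1.29 (SE 0.24, limma adjusted p = 0.00047, deposited scale 0.04), Hyou1 by −1.06 (SE 0.18, limma adjusted p = 0.00028, deposited scale 0.32), Ero1lb by −0.98 (SE 0.30, limma adjusted p = 0.021, deposited scale 0.37) and Dnajb11 by −0.95 (SE 0.24, limma adjusted p = 0.0063, deposited scale 0.41). The Ero1lb call was lost without C57 day 21 mouse 2 (−0.86, limma adjusted p = 0.16) or NZB day 21 mouse 2 (−0.93, 0.097), and the Dnajb11 call without C57 day 21 mouse 2 (−0.80, 0.086) or mouse 3 (−0.79, 0.056). By limma voom the Ero1lb call was lost as well (−1.01, adjusted p = 0.056). Hspa5 stood at 226, 255 and 229 in C57 and 148, 132 and 116 in NZB, without overlap, a difference of −0.84 (SE 0.20, limma adjusted p = 0.0035, deposited scale 0.54). Xbp1 differed by 0.07 (SE 0.22, limma adjusted p = 0.85, deposited scale 1.47), with 1113, 925 and 991 in C57 and 919, 1279 and 1013 in NZB, and Derl3 by −0.16 (SE 0.50, limma adjusted p = 0.85, deposited scale 1.10). Neither passed on the non-milk scale, and the genotypes overlapped in both. The sensors were at 0.50 (SE 0.19, limma adjusted p = 0.067, deposited scale 1.84) for Ern1, −0.09 (SE 0.15, limma adjusted p = 0.72, deposited scale 1.28) for Atf6 and −0.35 (SE 0.20, limma adjusted p = 0.23, deposited scale 1.01) for Eif2ak3, of which none passed on the non-milk scale. Eif2ak3 was called lower with median-of-ratios scaling (−0.61, limma adjusted p = 0.041).

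Herpud1 was the member higher in NZB on day 21. It stood at 10.3, 17.2 and 12.8 non-milk CPM in C57 and 35, 23.3 and 36.2 in NZB, all NZB mice above all C57 mice. The difference was 1.17 (SE 0.31, limma adjusted p = 0.0084, deposited scale 2.35), which with median-of-ratios scaling was 0.91 (limma adjusted p = 0.058).

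The change from day 14 to day 21 was then compared between genotypes in the same fit. It differed for 5 of 35 members, all with the lower change in NZB (2.56% of all genes had a lower change in NZB and 4.50% a higher one). The 5 were Fkbp11 at −3.58 (SE 0.35, limma adjusted p = 2.2e-06, deposited scale −2.09), P4hb at −1.71 (SE 0.25, limma adjusted p = 0.00017, deposited scale −0.26), Sec61b at −1.55 (SE 0.32, limma adjusted p = 0.0056, deposited scale −0.16), Hyou1 at −1.08 (SE 0.25, limma adjusted p = 0.012, deposited scale 0.35) and Edem3 at −0.93 (SE 0.21, limma adjusted p = 0.0083, deposited scale 0.51). Keeping milk genes, Hyou1 and Edem3 had the opposite sign, and over all members 21 changes were higher in NZB and 1 lower (74.2% and 0.459% of all genes). Without C57 day 21 mouse 2, 3 members passed, with Hyou1 at −1.06 (limma adjusted p = 0.062) and Edem3 at −0.87 (0.058). Without C57 day 21 mouse 1, 8 passed. Hspa5 was at −0.69 (SE 0.27, limma adjusted p = 0.12, deposited scale 0.75), Xbp1 at 0.24 (SE 0.30, limma adjusted p = 0.68, deposited scale 1.69) and Derl3 at −1.03 (SE 0.68, limma adjusted p = 0.37, deposited scale 0.35), which did not pass on the non-milk scale. Ern1 was at 0.40 (SE 0.27, limma adjusted p = 0.37, deposited scale 1.80), Atf6 at −0.10 (SE 0.21, limma adjusted p = 0.83, deposited scale 1.32) and Eif2ak3 at −0.22 (SE 0.28, limma adjusted p = 0.67, deposited scale 1.18), likewise not called on the non-milk scale.

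Against the non-lactating state, NZB glands on day 21 had 10 members higher and 1 lower (12.5% and 10.2% of all genes; medians 0.51 and −0.06), or 3 and 3 on the deposited scale (7.08% and 21.2%). Without NZB non-lactating mouse 2 these were 2 and 0, and without mouse 3 they were 15 and 1. Limma voom called 17 higher and 3 lower. Xbp1 was furthest above the non-lactating level, at 2.63 (SE 0.27, limma adjusted p = 1.8e-07, deposited scale 2.24), followed by Derl3 at 2.34 (SE 0.60, limma adjusted p = 0.0062, deposited scale 1.97), Dnajb9 at 1.78 (SE 0.44, limma adjusted p = 0.0046, deposited scale 1.39) and Ero1l at 1.72 (SE 0.36, limma adjusted p = 0.0011, deposited scale 1.34). Without non-lactating mouse 2 the calls of Derl3 (limma adjusted p = 0.19), Dnajb9 (0.13) and Ero1l (0.063) were lost. Edem3 was at 1.0 (SE 0.18, limma adjusted p = 0.00033, deposited scale 0.61), Ern1 at 0.73 (SE 0.23, limma adjusted p = 0.026, deposited scale 0.34) and Atf6 at 0.59 (SE 0.18, limma adjusted p = 0.02, deposited scale 0.20). The Ern1 call was lost without any of 4 mice (NZB non-lactating mice 1 and 2 and day 21 mice 2 and 3, limma adjusted p = 0.067 to 0.20), and Atf6 without non-lactating mouse 2 (0.25) or day 21 mouse 3 (0.087). In a fit of the compared groups alone the Atf6 call was lost too (0.59, limma adjusted p = 0.074). Hspa5, at 0.63 (SE 0.24, limma adjusted p = 0.057, deposited scale 0.24), Fkbp11, at 0.61 (SE 0.31, limma adjusted p = 0.16, deposited scale 0.34), and Eif2ak3, at 0.34 (SE 0.24, limma adjusted p = 0.36, deposited scale −0.05), did not pass. Hspa5 passed by limma voom (0.64, adjusted p = 0.0096), with median-of-ratios scaling (0.64, 0.044), without group weights (0.63, 0.01) and without non-lactating mouse 3 (0.68, 0.014). Without non-lactating mice 2 and 3, which leaves 1 mouse in that group, Fkbp11 was at 0.91. Derl1 was lower, at −0.74 (SE 0.22, limma adjusted p = 0.019, deposited scale −1.13), a call lost without non-lactating mouse 1 (−0.53, 0.14), mouse 2 (−0.67, 0.27) or day 21 mouse 2 (−0.66, 0.087). It was also lost with median-of-ratios scaling (−0.73, limma adjusted p = 0.057) and in a fit of the compared groups alone (−0.74, 0.098).

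Summed over all 35 members, the level was 3131 ± 138 non-milk CPM in C57 non-lactating glands and 5892 ± 213, 6244 ± 737 and 6138 ± 285 on days 8, 14 and 21. In NZB it was 2861 ± 80.5, then 6189 ± 496, 5932 ± 488 and 4626 ± 51.2. The NZB day 21 mice, at 4582, 4682 and 4614, lay between the non-lactating and the other lactating groups without overlap. On the deposited scale the order was turned, with 1636 ± 84.4 CPM on day 14 and 3485 ± 326 on day 21 in NZB.

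**Figure D4:**
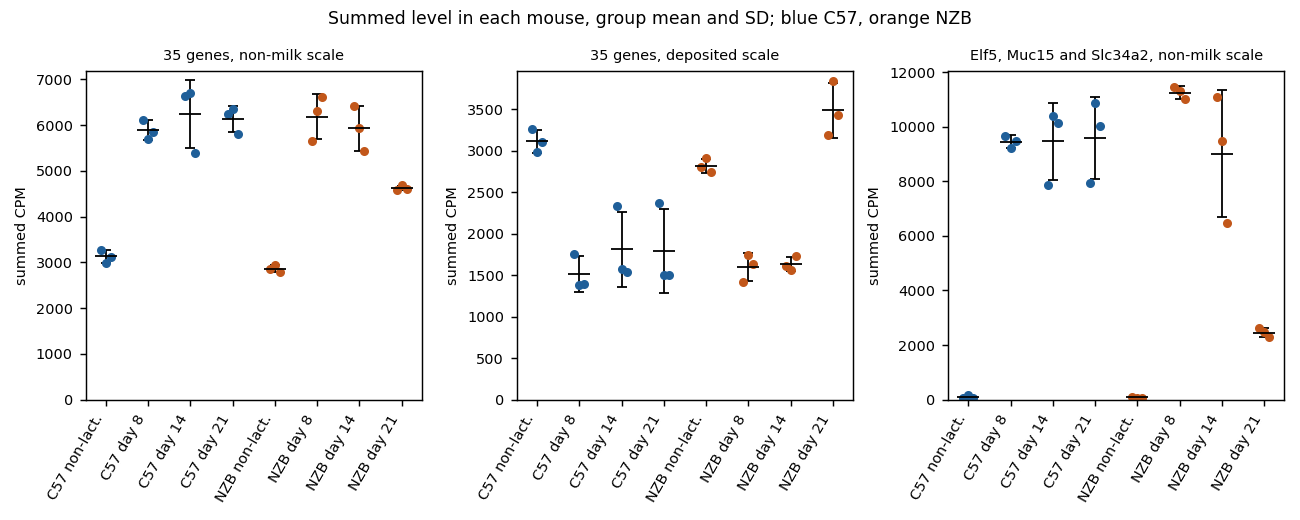
Summed CPM per mouse, with group mean and SD (n = 3, axes from 0), of the 35 genes on the non-milk scale (left) and the deposited scale (middle) and of the secretory markers Elf5, Muc15 and Slc34a2 (right). NZB day 21 mice sit at 4582, 4682 and 4614 on the left, below the other lactating mice, and at 3193, 3837 and 3426 in the middle, above them. The secretory markers stand at 2461 ± 180.0 in NZB day 21 mice.

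Markers of several cell types moved with the late change in NZB, in which 19.2% of all genes were higher and 7.06% lower. The 3 secretory luminal markers outside the removed milk genes (Elf5, Muc15 and Slc34a2) summed to 11080, 9472 and 6481 non-milk CPM in NZB on day 14 and 2640, 2462 and 2280 on day 21, against 7931, 10850 and 10010 in C57 on day 21. Of these 3 genes 1 was called lower from day 14 to day 21, the phosphate transporter gene Slc34a2 (−6.35, limma adjusted p = 6.7e-11), while Elf5 was at −0.70 (0.051) and Muc15 at −0.50 (0.15). Slc34a2 was also lower on the deposited scale (−4.89, limma adjusted p = 5.4e-10), whereas Elf5 (0.74, 0.011) and Muc15 (0.94, 0.00054) were higher there. General luminal markers (10 genes, 4 of 10 higher) summed to 1715, 1394 and 1912 and 2023, 2367 and 2848. Macrophage markers (9 genes) summed to 173, 174 and 837 and 1043, 1010 and 1637, with 7 of 9 higher on day 21. White adipocyte markers (9 genes, 8 of 9 higher) summed to 315, 396 and 506 and 2212, 594 and 647, and fibroblast markers (7 genes, 7 of 7 higher) to 709.9, 924 and 701 and 2216, 937 and 1747. The part of these shifts in the members' changes was not tested.

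Fkbp11, Derl3 and Xbp1 are also known from plasma cells. Plasma cell markers (9 genes, immunoglobulin constant regions included) summed to 231, 368 and 208 non-milk CPM in C57 non-lactating mice, 295, 654 and 539.9 on day 8, 2090, 2395 and 2479 on day 14 and 1505, 2994 and 3141 on day 21. In NZB they summed to 224, 832 and 1749, 1616, 2889 and 289, 5541, 4784 and 3361 and 7905, 2110 and 10070. Their mean was highest in NZB day 21 mice, at 6694 ± 4115 (SD, n = 3). Against NZB non-lactating glands 3 of the 9 were higher there and 1 lower (12.5% and 10.2% of all genes). Against NZB day 14 glands 1 was higher and 0 lower (19.2% and 7.06% of all genes). In those mice Xbp1 was at 919, 1279 and 1013, Derl3 at 20.6, 10.9 and 27.8 and Fkbp11 at 2.47, 3.17 and 2.38, with Xbp1 and Derl3 the members furthest above non-lactating glands. In C57 day 8 mice Xbp1 was at 889, 685 and 751, Derl3 at 61.1, 48.6 and 54.1 and Fkbp11 at 108, 103 and 111. The part of plasma cells in these levels was not tested. B cell markers (8 genes) summed to 152, 39 and 11.5 in NZB on day 14 and 21.9, 15.8 and 22 on day 21, with 1 of the 8 at 0 in all 3 day 21 mice. T cell markers (7 genes) summed to 90.6, 15.4 and 17.3 and 43, 28.4 and 26.5, endothelial markers (6 genes) to 215, 307 and 229.5 and 325, 262 and 199, hormone-sensing luminal markers (7 genes) to 689.6, 613 and 701 and 878, 1119 and 1232, and myoepithelial markers (7 genes) to 1099, 1268 and 1118 and 1653, 1515 and 1048.

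Other genes of the pathway were read from lists by function, all on the non-milk scale unless stated. Over all genes 14.7% were higher and 34.3% lower on day 8 in C57 (median −0.28), and 19.2% higher and 7.06% lower from day 14 to day 21 in NZB (median 0.26). For translocation and signal peptide processing, 18 of 22 tested genes were higher and 1 lower (median 0.92) on day 8 in C57. Ssr4, a subunit of the translocon-associated TRAP complex, changed by 3.38 (SE 0.25, limma adjusted p = 1.3e-10) and Tram1, which helps chains enter the channel, by 2.57 (SE 0.17, limma adjusted p = 2.3e-11). In NZB from day 14 to day 21, 1 of 22 tested genes were higher and 9 lower (median −0.41), with Ssr4 at −1.97 (SE 0.26, limma adjusted p = 1.1e-05) and Tram1 at −1.34 (SE 0.18, limma adjusted p = 1.2e-05). For oligosaccharyltransferase, which adds N-glycans to entering chains, 9 of 12 tested genes were higher and 1 lower (median 1.06) on day 8 in C57, and 1 of 12 tested genes were higher and 6 lower (median −0.64) from day 14 to day 21 in NZB. Of its subunits Krtcap2 was at 2.10 (SE 0.20, limma adjusted p = 8.1e-09) and −1.52 (SE 0.21, limma adjusted p = 2e-05) in these comparisons. The change from day 14 to day 21 differed between genotypes for 6 of the 12 subunit genes, all lower in NZB. Over all genes 2.56% had a lower change in NZB and 4.50% a higher one. With milk genes kept the direction turned, with 5 of the 12 higher in NZB and 0 lower (74.2% and 0.459% of all genes).

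Other folding genes were mixed. On day 8 in C57 10 of 21 tested genes were higher and 4 lower (median 0.30), with Lman1, a cargo receptor for export from the ER, at 1.79 (SE 0.17, limma adjusted p = 1.1e-08) and Fkbp7 at −2.09 (SE 0.26, limma adjusted p = 5.7e-07). From day 14 to day 21 in NZB 2 of 21 tested genes were higher and 6 lower (median −0.18), with the cyclophilin Ppib at −1.07 (SE 0.17, limma adjusted p = 0.00011) and Dnajc10, a disulfide reductase of ERAD, at 1.05 (SE 0.17, limma adjusted p = 0.00015). Among other ERAD genes 8 of 18 tested genes were higher and 1 lower (median 0.32) on day 8 in C57 and 5 of 18 tested genes were higher and 3 lower (median −0.05) from day 14 to day 21 in NZB, with the ligase gene Rnf5 at 1.49 (SE 0.13, limma adjusted p = 2.3e-09) and −0.97 (SE 0.14, limma adjusted p = 2.6e-05).

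Targets of the PERK branch include genes of amino acid supply. On day 8 in C57 6 of 12 tested genes were higher and 1 lower (median 0.65), with the asparagine synthetase Asns at 2.25 (SE 0.22, limma adjusted p = 1.5e-08), the factor Atf4 at 1.63 (SE 0.17, limma adjusted p = 5.2e-08) and Trib3 at 2.48 (SE 0.31, limma adjusted p = 5.7e-07). From day 14 to day 21 in NZB 0 of 12 tested genes were higher and 3 lower (median −0.44), with Asns at −1.61 (SE 0.23, limma adjusted p = 3.6e-05). Of other regulators 7 of 14 tested genes were higher and 2 lower (median 0.47) on day 8 in C57 and 0 of 14 tested genes were higher and 4 lower (median 0.03) from day 14 to day 21 in NZB. Bhlha15 (MIST1), a factor of secretory cells that acts downstream of Xbp1, changed by 5.01 (SE 0.39, limma adjusted p = 4.5e-10) and −2.99 (SE 0.41, limma adjusted p = 2.1e-05). Its late change differed between genotypes, by −2.97 (SE 0.62, limma adjusted p = 0.0058).

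With milk genes kept, most called genes of each of the 6 lists were lower on day 8 and higher from day 14 to day 21. On day 8 in C57, where 2.38% of all genes were higher and 90.5% lower (median −1.80), there were 3 higher and 15 lower of 22 (median −1.0) for translocation, 0 higher and 10 lower of 12 (median −0.89) for oligosaccharyltransferase, 0 higher and 20 lower of 21 (median −1.64) for other folding, 0 higher and 17 lower of 18 (median −1.55) for other ERAD, 0 higher and 7 lower of 12 (median −1.01) for PERK targets and 1 higher and 13 lower of 14 (median −1.30) for other regulators. From day 14 to day 21 in NZB, where 88.4% of all genes were higher and 0.979% lower (median 1.36), there were 17 higher and 1 lower of 22 (median 0.95) for translocation, 10 higher and 0 lower of 12 (median 0.77) for oligosaccharyltransferase, 17 higher and 0 lower of 21 (median 1.20) for other folding, 17 higher and 0 lower of 18 (median 1.34) for other ERAD, 8 higher and 0 lower of 12 (median 0.89) for PERK targets and 12 higher and 1 lower of 14 (median 1.12) for other regulators. Median-of-ratios scaling was not run for these lists.

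Members with and without the ERSE shown above were set side by side. On day 8 in C57, 8 of 10 members with the motif were higher and 0 lower (median 0.67), and 10 of 20 without it were higher and 3 lower (median 0.65). In NZB 6 of 10 and 9 of 20 were higher on day 8. From day 14 to day 21 in NZB, 6 of 10 with the motif fell (median −0.72) and 5 of 20 without it (median −0.07). The 5 members whose late change differed between genotypes included 0 of the 10 with an ERSE and 4 of the 20 without one, and Hyou1 had no promoter in the table. In that comparison 2.56% of all genes had a lower change in NZB and 4.50% a higher one, so 0 of 10 is near the share of all genes. These counts are on the non-milk scale, where 14.7% of all genes were higher on day 8 in C57, 12.3% on day 8 in NZB, and 7.06% lower and 19.2% higher from day 14 to day 21 in NZB (median 0.26). Keeping milk genes, 1 of 10 with the motif was higher and 8 lower on day 8 in C57, and 2 and 13 of 20 without it (2.38% and 90.5% of all genes). From day 14 to day 21 in NZB 8 of 10 were then higher and 0 lower (median 0.70), against 16 and 1 of 20 without it (median 1.35). Over all genes 88.4% were higher there and 0.979% lower. The difference between members with and without the motif was not tested.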

How the data were processed

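The 24 libraries are polyadenylated RNA from inguinal mammary glands, 3 mice in each of 8 groups, with 2 columns per mouse. The values the authors deposited are log10 values of CPM plus 1, as read from the values themselves, which return whole reads for 100.0% of entries (tolerance 0.05 read). The builds GRCm38 and mm10 are named per the submitters' processing notes, and the aligner and counter were not given in the sources used here.

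Here the log was undone, the columns of a mouse averaged, 20 of 21 listed milk protein genes removed and the rest rescaled to 1000000. Another 27 symbols turned into dates stayed in the totals and were not tested. Genes above 1 non-milk CPM in at least 3 samples (16924) were tested with limma 3.58.1 in R 4.3.3 on log2(non-milk CPM + 1), with all 24 samples, a variance weight per group (arrayWeights), a trended prior and Benjamini-Hochberg adjustment at 0.05, in 13 comparisons (2-sided). The scripts were tested on simulated data with known changes. With group weights, 14 of 127 calls were false for NZB day 8 against non-lactating glands, a share above 0.05. There 27% of 2-fold and 86% of 4-fold changes were recovered. For C57 day 8 it was 7 of 136 false, with 43% and 86% recovered. For NZB day 21 against day 14 it was 6 of 146, with 53% and 87%. NZB calls against non-lactating glands may thus hold more false ones than the threshold states, and 2-fold changes are often missed. Alternatives were the deposited scale, median-of-ratios scaling, other filters, weights, pseudocounts and columns, limma voom on recovered reads, a replicate block and leaving out each mouse. Tables and plots used Python 3.11.15, pandas 2.3.3, numpy 2.4.6 and matplotlib 3.10.9.

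The 35 members and all gene lists were chosen with earlier results of these data known. Any member may be named with its level. Changes are given in each comparison for up to 6 rises and 6 falls among the members called, largest first, and always for Hspa5, Xbp1, Ern1, Atf6, Eif2ak3, Fkbp11 and Derl3. For other pathway lists up to 3 genes with the smallest adjusted p are named. Changes of other members, where given beside these, were added after their values were seen.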

Additional observations from a re-analysis of the deposited data

Results flagged for a closer look

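The change from lactation day 14 to day 21 differed between genotypes for 5 of the 35 genes, by a test of the difference itself in the fit over all 24 mice. Over all genes 2.56% had a lower change in NZB and 4.50% a higher one, or 0.459% and 74.2% on the deposited scale. On the log2 non-milk scale, the NZB change less the C57 change was −3.58 for Fkbp11 (SE 0.35, limma adjusted p = 2.2e-06), −1.71 for P4hb (SE 0.25, 0.00017), −1.55 for Sec61b (SE 0.32, 0.0056), −1.08 for Hyou1 (SE 0.25, 0.012) and −0.93 for Edem3 (SE 0.21, 0.0083). In all 5 the 3 NZB day 21 mice were below the 3 NZB day 14 mice. That is no further support, since the 5 were picked by a call that uses this same change. The share of all genes that separate in this way was not counted. On the deposited scale 1 of the 5 was called lower, Fkbp11 (−2.09, limma adjusted p = 0.00027), while P4hb (−0.26, 0.41), Sec61b (−0.16, 0.71), Hyou1 (0.35, 0.34) and Edem3 (0.51, 0.12) were not called. Without C57 day 21 mouse 2 the calls of Hyou1 (−1.06, 0.062) and Edem3 (−0.87, 0.058) were lost. The milk share and the secretory marker Slc34a2 also differed between NZB days 14 and 21, and their part was not tested.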

How the results depend on the processing

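Counts of members are given as higher and lower, lactation days against non-lactating glands unless stated. Shares of all genes are given above for the main fit and the deposited scale. They are not given for the other settings or for fits that leave out mice, so those counts are not set against all genes. On the deposited scale, with milk genes kept, they were 3 and 25 for C57 day 8, 2 and 23 for C57 day 14, 2 and 22 for C57 day 21, 3 and 23 for NZB day 8, 3 and 22 for NZB day 14, 3 and 3 for NZB day 21, 27 and 1 for NZB day 21 against day 14, 23 and 1 for NZB against C57 on day 21 and 21 and 1 for the difference of late changes. Median-of-ratios scaling gave 26 and 1 for C57 day 8, 27 and 1 for C57 day 21, 24 and 0 for NZB day 8, 24 and 0 for NZB day 14, 0 and 17 for NZB day 21 against day 14, 0 and 2 for NZB against C57 without lactation and 0 and 15 for NZB against C57 on day 21. It moved the median of all genes by 0.12 to 0.24 for lactation days against non-lactating glands, except NZB day 21 (0.02), by −0.21 for NZB day 21 against day 14 and by −0.23 for NZB against C57 on day 21. Without a low-value filter they were 21 and 1 for C57 day 21, 18 and 1 for NZB day 8 and 0 and 14 for NZB day 21 against day 14. The second column of each mouse alone gave 24 and 2 for C57 day 14 and 2 and 15 for NZB day 21 against day 14. A fit with no group weights gave 22 and 2 for NZB day 14, 15 and 3 for NZB day 21 and 0 and 1 for NZB against C57 without lactation. The compared groups alone gave 19 and 0 for NZB day 14 and 9 and 0 for NZB day 21. Limma voom on recovered reads gave 22 and 2 for NZB day 14, 17 and 3 for NZB day 21 and 0 and 1 for NZB against C57 without lactation. Leaving out NZB non-lactating mice 2 and 3, an alternative chosen after seeing the data, leaves 1 mouse in that group, so its counts are not given. The other counts under these settings, and every count with the first column alone, a pseudocount of 0.25 or the replicate block, stayed within 1.5 times the main count.

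For the members named by rule, signs with a call on at least 1 of the scales turned under 1 setting, the deposited scale. Log2 changes there were for C57 day 8 Hspa5 −0.60, Xbp1 −0.02, Atf6 −1.44, Eif2ak3 −1.11; for C57 day 14 Hspa5 −0.17, Atf6 −1.23, Eif2ak3 −0.63; for C57 day 21 Hspa5 −0.22, Atf6 −1.25, Eif2ak3 −0.78; for NZB day 8 Hspa5 −0.66, Ern1 −1.82, Atf6 −1.29, Eif2ak3 −1.25. They were also for NZB day 14 Hspa5 −0.45, Ern1 −1.51, Atf6 −1.10, Eif2ak3 −1.08; for NZB day 21 against day 14 Ero1lb 0.29, Hyou1 0.39, Manf 0.57, Hspa5 0.70, Atf6 1.30, Eif2ak3 1.03; for NZB against C57 on day 21 Sec61b 0.04, Hyou1 0.32, Ero1lb 0.37, Dnajb11 0.41, Hspa5 0.54, Atf6 1.28, Eif2ak3 1.01, Derl3 1.10; for the difference of late changes Hyou1 0.35, Edem3 0.51, Atf6 1.32, Eif2ak3 1.18. Signs that turned with no call on either scale were those of Eif2ak3 for NZB day 21 (0.34 to −0.05), Derl3 for NZB day 21 against day 14 (−1.04 to 0.34), Atf6 for NZB against C57 on day 14 (0.01 to −0.04), and Hspa5 (−0.69 to 0.75) and Derl3 (−1.03 to 0.35) for the difference of late changes. Members outside that rule turned as well, such as Sec61b on NZB day 8 (1.56 to −0.28). Over all settings apart from leaving out 1 mouse, 36 values of named members reversed, counting reversals only where a scale made a call. More values lost the call than gained it. Their numbers are not given, since that tally includes the fit with 1 mouse left in the NZB non-lactating group.

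With each mouse of the compared groups left out in turn, the counts ran from 20 to 22 and 2 to 5 for C57 day 8, 19 to 26 and 1 to 2 for C57 day 14, 18 to 23 and 1 to 2 for C57 day 21, 10 to 22 and 0 to 2 for NZB day 8, 10 to 22 and 0 to 1 for NZB day 14, 2 to 15 and 0 to 2 for NZB day 21, 0 to 0 and 0 to 0 for C57 day 21 against day 14, 0 to 2 and 10 to 16 for NZB day 21 against day 14, 0 to 1 and 0 to 0 for NZB against C57 without lactation, 0 to 0 and 0 to 0 for NZB against C57 on day 8, 0 to 0 and 0 to 0 for NZB against C57 on day 14, 1 to 2 and 8 to 16 for NZB against C57 on day 21 and 0 to 0 and 3 to 8 for the difference of late changes. Leaving out 1 mouse reversed 0 values of named members, lost 51 calls and gained 5. Small counts moved with single mice: the lower members of C57 day 8 numbered 2 without non-lactating mouse 1 or 3, and those of NZB day 8 numbered 1 without non-lactating mouse 1 or day 8 mouse 1 and 0 without non-lactating mouse 2.

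Replicate numbers were not taken to pair mice. Deviations of same-numbered mice correlated at −0.395 to 0.469 (median 0.00803, 84 pairs) and of other mice at −0.449 to 0.36 (median 0.00298, 168 pairs). These medians cover all groups together. In C57, same-numbered mice of days 14 and 21 lay close in some values. Milk shares of mice 1, 2 and 3 were 64.8%, 76.6% and 71.5% and then 62.0%, 76.4% and 74.3%. T cell marker sums were 62.05, 14.9 and 17.05 and then 61.1, 20.39 and 19.79 non-milk CPM. Whether those mice are paired was not tested. With the replicate number as a block the counts were 22 and 4 for C57 day 8, 24 and 1 for C57 day 14, 23 and 2 for C57 day 21, 18 and 2 for NZB day 8, 22 and 1 for NZB day 14, 9 and 1 for NZB day 21, 0 and 0 for C57 day 21 against day 14, 1 and 14 for NZB day 21 against day 14, 0 and 0 for NZB against C57 without lactation, 0 and 0 for NZB against C57 on day 8, 0 and 0 for NZB against C57 on day 14, 1 and 12 for NZB against C57 on day 21 and 0 and 5 for the difference of late changes, and among named members it changed 1 call, Eif2ak3 on NZB day 8 (0.62, limma adjusted p = 0.058).

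Depth limits the low members, since 1 read is worth more non-milk CPM in the lactating groups with 4.84 M to 6.68 M non-milk reads than in NZB day 21 with 12.14 M to 13.15 M.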

Other observations

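Members varied between mice of a group in ways the group means do not show. Derl3, a derlin of secretory cells, stood at 9.41 non-milk CPM in C57 day 14 mouse 1 against 39.3 and 24.2 in mice 2 and 3, and at 8.16 in C57 day 21 mouse 1 against 39.9 and 26.8. In the same C57 day 21 mouse 1 the oxidase gene Ero1l stood at 276.7 against 177.0 and 90.7, and the cochaperone gene Dnajb9 at 120.9 against 77.8 and 47.1. Those 2 mice 1 had milk shares of 64.8% and 62.0%, against 71.5% to 76.6% in the other C57 mice of days 14 and 21.

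In NZB day 8 mouse 1, Dnajb9 stood at 37.4 non-milk CPM against 89.4 and 125.2 in mice 2 and 3, and Manf at 44.8 against 104.7 and 117.6. Herpud1 was at 10.1 against 20.8 and 22.0, while Xbp1 was highest in that mouse, at 1392 against 1077 and 766.3. The milk share was 74.9% in it, against 72.3% and 75.4%.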
